A study of Mus musculus with 7 samples.

Results

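The lysosome, the proton pump that acidifies it and the autophagy machinery that feeds it were followed through 55 genes in RNA-seq libraries of mouse precision-cut liver slices (PCLS), thin discs of liver tissue kept alive in culture. The genes were taken by symbol as a module of V-ATPase subunits, lysosomal hydrolases and membrane proteins, mannose 6-phosphate receptors, TFEB-family factors and autophagy genes, and the module was drawn up because Neu1 and Atp6v1a were higher with valproate (VPA). All 55 were among the 55487 rows of the count table, and 53 were among the 10876 genes with enough reads to be tested. Since the contrast of VPA against control (CTR) chose the module, the values below describe its members and test nothing about them.

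The 3 CTR libraries came from slices of healthy adult male BALB/c mice held for 3 days in Williams' Medium E (WME) without VPA, and the 4 VPA libraries from slices of the same kind held in that medium with 2.5 mM VPA, an inhibitor of class I histone deacetylases. The labels give each library a slice culture number, and 3 numbers (71, 72 and 74) occur once in each group, while VPA 1 has a number of its own. The study's methods count each liver as a biological repeat, but the labels do not say which animal a library came from or what the culture number marks. Whole slices were lysed, so fewer cells of a type and less RNA per cell cannot be told apart. Expression is given as CPM, the reads of a gene relative to a fixed total of reads per library, scaled by TMM factors, in order of replicate number. The libraries were made from RNA 3′ ends, so a gene's CPM does not scale with its length, and levels of different genes are compared on the CPM scale.

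Lysosomes digest material that arrives from endocytosis and autophagy with a set of hydrolases that work only at acid pH. The V-ATPase builds that pH: its cytosolic V1 sector splits ATP and turns a rotor, and its membrane V0 sector carries the protons. Many of these genes are controlled together by TFEB, TFE3 and their relatives, which move to the nucleus when mTORC1 at the lysosome surface is inactive and bind an E-box, CACGTG, in the promoters of their targets.

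Of the 53 tested members, 35 had a positive log2 fold change and 18 a negative one. A positive value was found in 66.0% of the members, against 45.8% of all genes tested, and 54.2% of all genes had a negative one. The median log2 fold change was 0.21 over the members and -0.06 over all genes tested. Without Neu1 and Atp6v1a it was 0.21 over the other 51. No member passed an adjusted p of 0.05 in edgeR's quasi-likelihood test, in which 1 gene of the whole table (0.00919%) passed. At an unadjusted p under 0.05 the fit marked 10 members as higher, where 3.65% of all genes were so marked, and 2 as lower, where 4.62% were. In 11 members (20.8%) every VPA library lay above every CTR library, against 4.44% of all genes, and in 3 members (5.66%) every VPA library lay below, against 7.41%. The 11 were Atp6v1a, Atp6v1c1, Atp6v1d, Atp6v1e1, Atp6v0e, Ctsl, Ctsz, Neu1, Map1lc3b, Wipi1 and Uvrag, and the 3 were Hexa, Cd63 and Becn1. The choice of the module on this contrast means that nothing is read from these shares. DESeq2, run on the same counts, put 4 members among its higher calls (0.256% of the 15261 genes it gave an adjusted p) and 1 among its lower calls (0.754%). Those were Neu1, Atp6v1a, Atp6v1e1 and Ctsl on the one side and Cd63 on the other.

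**Figure D1:**
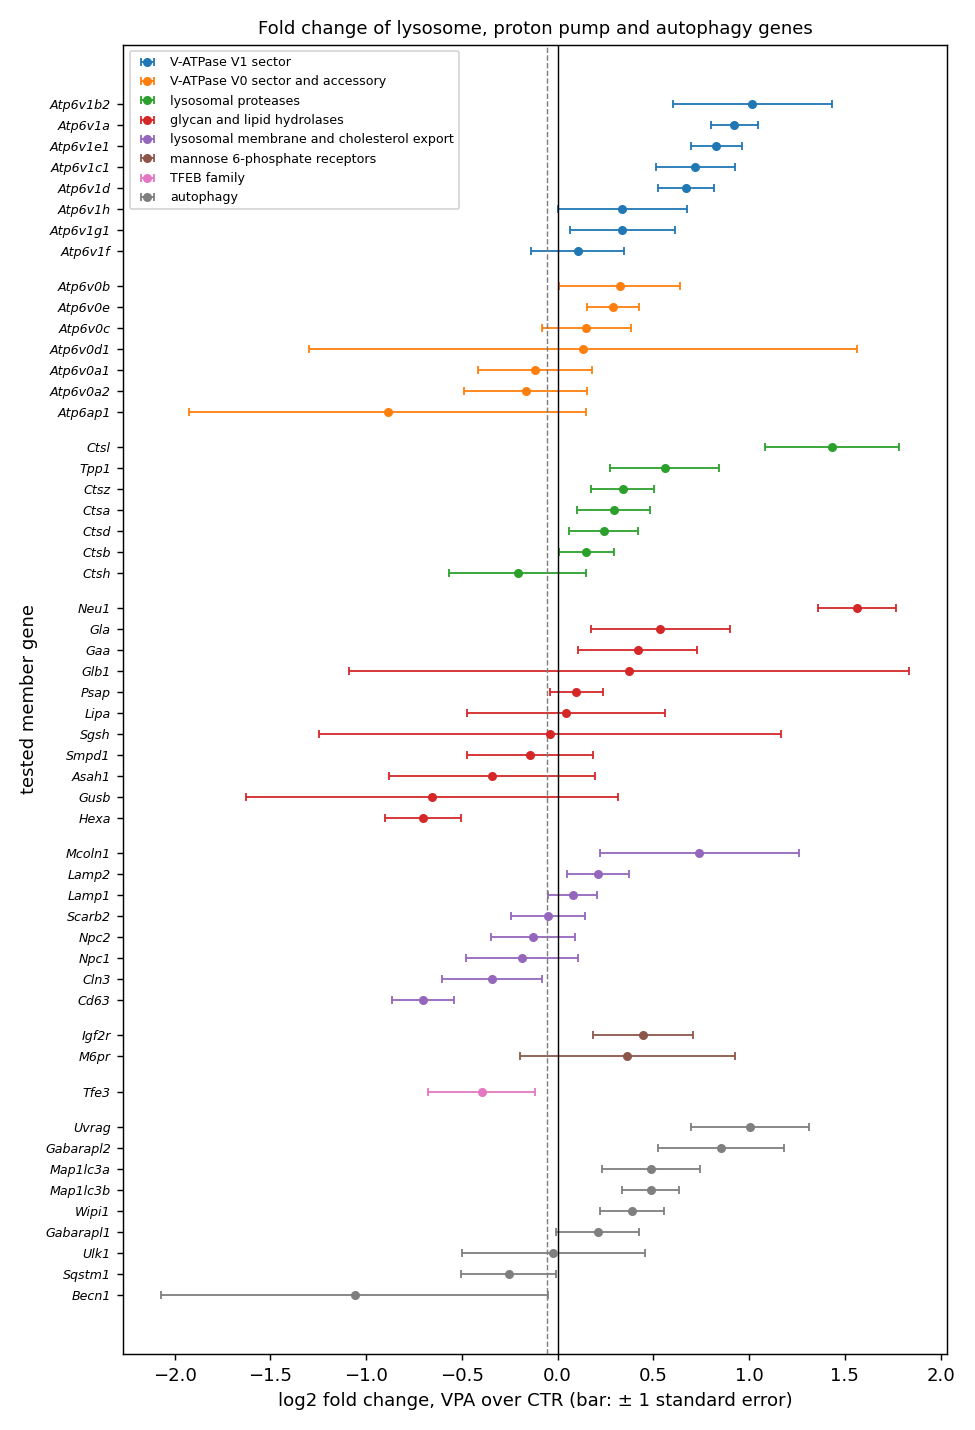
Log2 fold change of VPA over CTR for the 53 tested members, grouped and coloured by role, with bars of ± 1 standard error; the dashed line is the median of all genes tested, -0.06. All 8 V1 subunits lie to the right of 0, while membrane proteins lie on both sides and the bars of Atp6v0d1, Glb1, Sgsh, Atp6ap1, Gusb and Becn1, which were at 0 in a library, are the widest.

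The E-box was looked for in RefSeq promoter windows (build GRCm38.p6) of 250 bases before and 50 after each start site. For 43 members there was such a window, 51 windows in all, and the other 12 members had none. The letters CACGTG, which read the same on both strands, stood in 16 of the 51 windows (31.4%), against 7.15% of all 32851 windows, 10.3% of the windows of genes tested and 17.4% of those of further genes of the same pathways. The longer form TCACGTGA, which contains the shorter one, stood in 9 member windows (17.6%), against 0.974% of all windows, 1.97% of the windows of genes tested and 6.74% of the windows of the further pathway genes. Counting only the bases before the start, CACGTG was in 27.5% of member windows, 6.02% of all, 8.59% of those of genes tested and 15.7% of those of the further pathway genes. These are matches of letters and not bound sites. The stretches below are shown because they belong to the pump subunit on which the module was drawn up, the V0 subunit whose groups did not overlap, the 2 proteases with the highest VPA levels, the lysosomal calcium channel and a mannose 6-phosphate receptor. Each runs 5′ to 3′ on the strand of the gene, with the E-box in capitals.

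Atp6v1a, chr16:44139373-44139402, minus strand, E-box from 131 bases before the start: ttttttttaaatCACGTGataggcttaacg

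Atp6v0e, chr17:26676387-26676416, plus strand, E-box just after the start: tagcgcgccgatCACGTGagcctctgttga

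Ctsl, chr13:64370739-64370768, minus strand, 236 bases before: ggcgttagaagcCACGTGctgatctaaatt

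Ctsd, chr7:142387908-142387937, minus strand, 98 bases before: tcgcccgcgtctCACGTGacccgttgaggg

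Mcoln1, chr8:3500462-3500491, plus strand, 45 bases before: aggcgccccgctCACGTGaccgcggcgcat

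Igf2r, chr17:12769696-12769725, minus strand, 7 bases before: gccgactcaggtCACGTGacgctccgggga

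Lamp1, which encodes a major lysosomal membrane glycoprotein, had the most E-boxes of any member, 4 within 61 bases of its start, and this stretch is shown as far as the start site.

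Lamp1, chr8:13159088-13159160, plus strand: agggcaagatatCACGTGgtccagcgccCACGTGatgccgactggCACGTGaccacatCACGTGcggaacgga

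All stretches but those of Ctsl and Lamp1 hold the 8-letter form. Among tested members, 13 of the 15 with an E-box had a positive log2 fold change, with a median of 0.32, as had 15 of the 26 without one, with a median of 0.10, and 7 of the 12 without a window, with a median of 0.24. Over all genes tested that had a window, 48.8% of the 963 with an E-box and 44.5% of the 6849 without one had a positive value. The 13 include Glb1 and Atp6v0d1, which were at 0 in some libraries, and these genes and Lamp1 changed sign in alternative fits. The 15 include Atp6v1a and the 26 include Neu1, the genes on which the module was drawn up. The part of the E-box in these values was not tested. The window of Neu1, which had the highest log2 fold change of all members, held no CACGTG, nor did those of Atp6v1d, Atp6v1e1, Hexa and Cd63, while Lamp1 with its 4 copies differed by 0.08 on the log2 scale.

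In the V1 sector all 8 subunits had positive log2 fold changes, with a median of 0.70, and their summed CPM was 922 to 1213 in the CTR libraries and 1332 to 1673 in the VPA libraries, with no overlap. Atp6v1a (ENSMUSG00000052459, chr16:44085402-44139705, minus strand) encodes the catalytic subunit A, which splits ATP. It read 120.2, 116 and 124 CPM in the CTR libraries and 211, 237, 230.4 and 231 CPM in the VPA libraries. The means were 120.0 ± 4.00 (SD, n = 3) and 227 ± 11.5 (SD, n = 4), a log2 fold change of 0.92 ± 0.12 (standard error). The 4 VPA values lay close together and well above the 3 CTR values, which differed by only a few CPM.

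Atp6v1e1, part of the stalks that hold the head of the pump in place, was at 149, 147 and 167 CPM in CTR and 273, 284, 295 and 245 CPM in VPA, a log2 fold change of 0.83 ± 0.13. Atp6v1d, part of the central rotor, was at 151, 176 and 146 CPM in CTR and 249, 286, 225 and 243 CPM in VPA, a log2 fold change of 0.67 ± 0.15. Atp6v1c1, whose product joins V1 to V0 and regulates their assembly, had lower levels of 34.7, 32.7 and 31.8 CPM in CTR and 49.0, 52.9, 49.0 and 67.2 CPM in VPA, a log2 fold change of 0.72 ± 0.21. In these 3 genes, as in Atp6v1a, the groups did not overlap, and at each of the 3 slice culture numbers present in both groups the VPA library was the higher. The differences between the libraries numbered 71, 72 and 74 were 0.89, 0.94 and 1.03 on the log2 scale for Atp6v1a and 0.81, 0.72 and 0.94 for Atp6v1e1. The position of Atp6v1e1 overlaps Slc25a18 on the other strand, and whether strand was used in counting is not stated.

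The other 4 V1 subunits were less even. Atp6v1b2, the B subunit that pairs with A in the catalytic head, was at 65.4, 111 and 69.6 CPM in CTR and 226, 181, 65.8 and 193 CPM in VPA. Its log2 fold change of 1.02 ± 0.42 was the highest of the sector, but VPA 3 lay among the CTR libraries, and it differed by -0.08 on the log2 scale from CTR 3, which carries the same culture number. Atp6v1g1 and Atp6v1h each had a log2 fold change of 0.34, with standard errors of 0.28 and 0.34, and both overlapped between the groups. Atp6v1f, the most abundant of the V1 genes in CTR at 349 ± 98.7 CPM (SD, n = 3), was at 375 ± 81.0 CPM (SD, n = 4) in VPA. Its log2 fold change of 0.11 ± 0.24 took the other sign in 4 alternative fits, and in those the count of 8 of 8 positive V1 subunits does not hold.

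**Figure D2:**
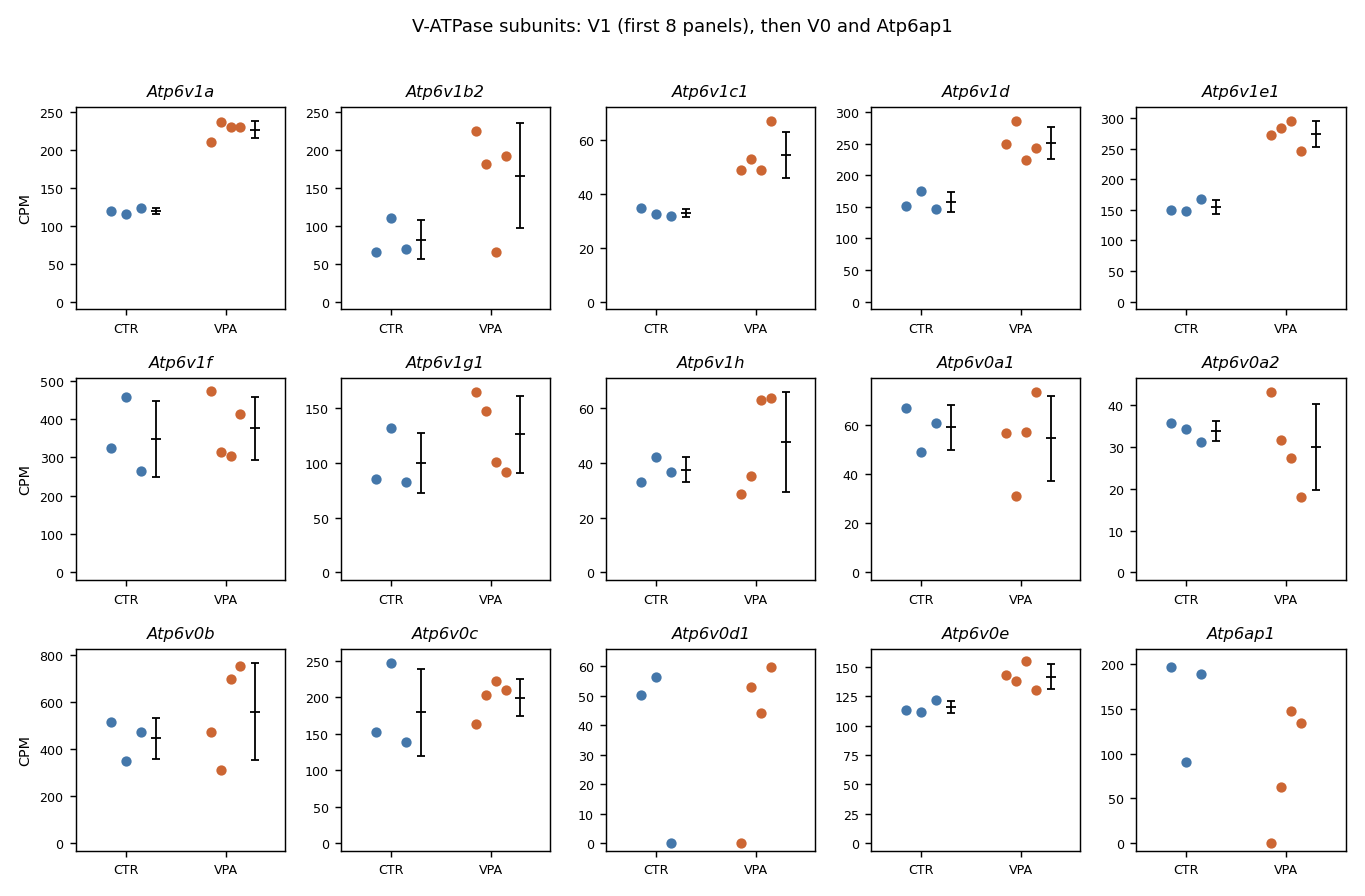
CPM of V-ATPase genes in each library (blue, CTR; orange, VPA), with the mean and SD of each group as black bars, left out where a gene was at 0 in a library. Atp6v1a, Atp6v1c1, Atp6v1d and Atp6v1e1 do not overlap between the groups, Atp6v1b2 and Atp6v0c do, and Atp6ap1 is at 0 in VPA 1.

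In the V0 sector, counted here with the accessory gene Atp6ap1, 4 of 7 genes had positive and 3 negative log2 fold changes, with a median of 0.13. The summed CPM of the 7 was 938 to 1133 in CTR and 831 to 1381 in VPA, so the groups overlapped. Atp6v0e, which encodes a small membrane subunit, was the only gene of this set without overlap. It was at 113, 112 and 122 CPM in CTR and 143, 137, 155 and 129.9 CPM in VPA, a log2 fold change of 0.29 ± 0.13. The separation was narrow. Atp6v0c, the proteolipid that makes up most of the rotor ring and binds the protons, was at 152, 247 and 139 CPM in CTR and 163, 203, 222 and 210.0 CPM in VPA, and its log2 fold change of 0.15 ± 0.23 turned to -0.02 in the lowest of the fits that left out a library.

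Atp6v0b, another proteolipid of the ring and the most abundant V-ATPase member, ranged from 349 to 519 CPM in CTR and from 313 to 757 CPM in VPA. Atp6v0a1 and Atp6v0a2, alternative forms of the subunit through which protons enter and leave, had log2 fold changes of -0.12 ± 0.30 and -0.17 ± 0.32. Atp6ap1, an accessory protein needed to assemble V0, was at 196, 90.3 and 189 CPM in CTR and at 0, 62.4, 148 and 134 CPM in VPA. Atp6v0d1, the subunit that couples V0 to the central stalk, was at 50.04, 56.4 and 0 CPM in CTR and at 0, 52.9, 44.2 and 59.7 CPM in VPA. Both genes were thus listed at 0 in a library while the others of its group held many reads, and these zeros are taken up with the others below.

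Among the lysosomal proteases 6 of 7 had positive log2 fold changes, with a median of 0.29. Cathepsin L stood apart from the rest. Ctsl (ENSMUSG00000021477, chr13:64359337-64370890, minus strand), a cysteine protease that digests proteins in the lysosome, was at 634, 375 and 542 CPM in CTR and 1055, 1476, 2172 and 886 CPM in VPA. The means were 517 ± 131 (SD, n = 3) and 1397 ± 573 (SD, n = 4), and the log2 fold change was 1.43 ± 0.35. The groups did not overlap, but the VPA libraries differed widely among themselves, and the difference between the libraries numbered 72 was 0.48 on the log2 scale, against 2.0 for number 71 and 1.97 for number 74. The gene shares its position with a processed pseudogene on its own strand and an antisense gene, so part of these reads could be assigned differently.

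Ctsl also carried the total of the class. The summed CPM of the 7 proteases was 2162 to 2353 in CTR and 2909 to 4498 in VPA, and without Ctsl it was 1719 to 1786 in CTR and 1854 to 2326 in VPA, still without overlap but closer. In the same way the 55 members together took 0.921% to 1.07% of all counts in the CTR libraries and 1.08% to 1.13% in the VPA libraries, and without Ctsl 0.862% to 1.03% and 0.901% to 0.997%, which overlapped.

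Ctsz, an exopeptidase also called cathepsin X, was at 201, 237 and 212 CPM in CTR and 341, 238, 253 and 265 CPM in VPA, a log2 fold change of 0.34 ± 0.17. Its groups did not overlap, but only narrowly, since CTR 2 and VPA 2 differed by 0.01 on the log2 scale. Cathepsin D, the aspartic protease Ctsd, was at 639, 755 and 696 CPM in CTR and 667, 727, 886 and 1014 CPM in VPA, a log2 fold change of 0.24 ± 0.18. Cathepsin B, the cysteine protease Ctsb, was at 512, 480.2 and 423 CPM in CTR and 486, 534, 601 and 474 CPM in VPA, a log2 fold change of 0.15 ± 0.14. In both of these abundant genes the groups overlapped. Ctsz, Ctsb and Ctsd each share part of their position with another gene. Tpp1, a peptidase that cuts tripeptides from the ends of proteins, had a log2 fold change of 0.56 ± 0.29, and Ctsa, the protective protein that holds NEU1 and beta-galactosidase in a stable complex, had 0.29 ± 0.19. Ctsh, an aminopeptidase, had -0.21 ± 0.36.

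The glycan and lipid hydrolases held the highest log2 fold change of the module, that of Neu1, with 6 of the 11 tested genes positive, 5 negative and a median of 0.04. Neu1 (ENSMUSG00000007038, chr17:34931253-34935953, plus strand) encodes the sialidase that removes terminal sialic acids from glycoproteins and glycolipids. It was at 43.7, 42.0 and 45.5 CPM in CTR and 169.8, 125, 110.0 and 112 CPM in VPA. The means were 43.7 ± 1.76 (SD, n = 3) and 129 ± 27.9 (SD, n = 4), a 2.95-fold difference and a log2 fold change of 1.56 ± 0.20. The CTR libraries agreed within a few CPM, every VPA library was far above them, and the differences between the libraries numbered 71, 72 and 74 were 1.26, 1.34 and 1.55 on the log2 scale.

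Hexa, the alpha subunit of the hexosaminidase that degrades GM2 ganglioside, had the lowest log2 fold change of these enzymes. It was at 98.9, 93.2 and 111 CPM in CTR and 45.0, 64.9, 65.8 and 72.5 CPM in VPA, a log2 fold change of -0.70 ± 0.20. All 4 VPA libraries were below all 3 CTR libraries. Tmem202 lies across it on the other strand.

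The remaining enzymes did not separate the groups. Lipa, the acid lipase that splits cholesteryl esters and triglycerides from lipoproteins and lipid droplets, was at 361, 119 and 361 CPM in CTR and 206, 129.7, 422 and 396 CPM in VPA, a log2 fold change of 0.04 ± 0.52. The low libraries were CTR 2, VPA 1 and VPA 2. Gla, which removes galactose from globotriaosylceramide, and Gaa, which degrades lysosomal glycogen, had log2 fold changes of 0.54 ± 0.36 and 0.42 ± 0.31. Psap, the precursor of the saposins that present lipids to these enzymes, was at 369 ± 16.8 CPM (SD, n = 3) in CTR and 395 ± 45.5 CPM (SD, n = 4) in VPA. Asah1, the acid ceramidase, and Smpd1, the acid sphingomyelinase, had log2 fold changes of -0.34 ± 0.54 and -0.14 ± 0.33.

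Among the scarcer hydrolases, Glb1, the beta-galactosidase, was at 20.5, 16.6 and 0 CPM in CTR and 0, 17.2, 25.7 and 21.9 CPM in VPA. Gusb, the beta-glucuronidase, was at 30.3, 27.4 and 48.8 CPM in CTR and 20.9, 40.6, 0 and 27.2 CPM in VPA. The heparan sulfate enzymes Sgsh and Naglu were low or absent: Sgsh was at 12.2, 13.6 and 0 CPM in CTR and 3.26 to 16.1 CPM in VPA, and Naglu had 79 reads in all, every one of them in CTR 1. Glb1, Gusb and Sgsh are counted by sign in the totals given here, although no reliable fold change can be read from such values. Naglu was not tested.

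**Figure D3:**
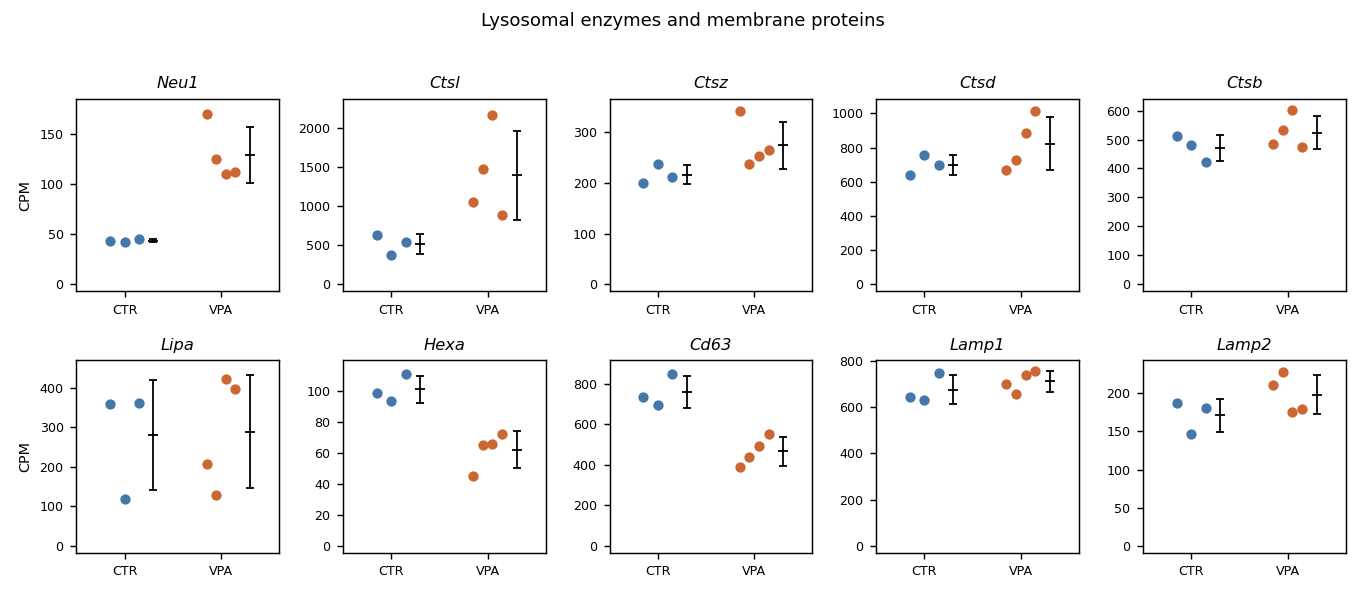
CPM of lysosomal enzymes and membrane proteins in each library (blue, CTR; orange, VPA), with the mean and SD of each group as black bars. Neu1 and Ctsl are higher and Hexa and Cd63 lower in all 4 VPA libraries, while Ctsd, Ctsb, Lipa, Lamp1 and Lamp2 overlap between the groups.

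The proteins of the lysosomal membrane and of cholesterol export had 3 positive and 5 negative log2 fold changes, with a median of -0.09. Cd63 (chr10:128900989-128912822, plus strand), a tetraspanin of late endosomes, lysosomes and exosomes, was at 735, 695 and 849.7 CPM in CTR and 387, 437, 495 and 551 CPM in VPA, a log2 fold change of -0.70 ± 0.16. Every VPA library was lower than every CTR library, and lower at each of the 3 shared culture numbers. Lamp1, the glycoprotein that lines the membrane, was at 644, 632 and 746 CPM in CTR and 699, 654, 738 and 754 CPM in VPA, a log2 fold change of 0.08 ± 0.13. Lamp2, its relative that also acts in chaperone-mediated autophagy, was at 187, 146 and 181 CPM in CTR and 211, 228, 175 and 179 CPM in VPA, a log2 fold change of 0.21 ± 0.16. These structural markers of the organelle thus overlapped between the groups, unlike Cd63. Lamp1 shares its position with Grtp1 on the other strand.

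Mcoln1, the calcium channel whose opening activates TFEB, was low at 22.9, 5.91 and 14.3 CPM in CTR and 17.0, 19.7, 26.5 and 32.5 CPM in VPA, a log2 fold change of 0.74 ± 0.52 that ranged from 0.35 to 1.24 over the fits that left out a library. Npc1, which with Npc2 exports cholesterol from the lysosome, was at 119, 92.6 and 184 CPM in CTR and 139.7, 85.2, 141 and 97.4 CPM in VPA, a log2 fold change of -0.18 ± 0.29. Npc2 had -0.13 ± 0.22, Scarb2, the receptor that carries glucocerebrosidase to the lysosome, -0.05 ± 0.19, and Cln3 -0.34 ± 0.26. None of these separated the groups. The 2 mannose 6-phosphate receptors, which sort newly made hydrolases to the lysosome, had log2 fold changes of 0.45 ± 0.26 for Igf2r and 0.36 ± 0.56 for M6pr, but that of M6pr turned to -0.16 with slice culture number as a block. M6pr was at 62.6 to 88.1 CPM in 3 VPA libraries and at 11.3 CPM in VPA 4.

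The TFEB-family factors showed no such separation. Tfe3 was at 73.7, 57.4 and 62.5 CPM in CTR and 53.5, 28.6, 54.6 and 60.4 CPM in VPA, a log2 fold change of -0.40 ± 0.28. Its groups overlapped, and the VPA library was the lower one at all 3 shared culture numbers. Tfeb had 32 reads in all and was not tested. It was at 0, 3.75 and 0 CPM in CTR and 0, 0, 10.4 and 0 CPM in VPA. For counting error only, a count of 0 allows up to 0.922 to 2.27 CPM, the value of 3 reads, in the 5 libraries without a read. Well expressed genes were also at 0 in some libraries, as described below, so these values are not upper bounds for Tfeb. RNA levels do not show where these proteins were in the cell.

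In the autophagy genes 6 of 9 log2 fold changes were positive, with a median of 0.39. Uvrag, which joins the lipid kinase complex that matures autophagosomes and endosomes, was at 18.1, 20.9 and 21.4 CPM in CTR and 43.1, 54.7, 26.5 and 37.0 CPM in VPA, a log2 fold change of 1.01 ± 0.31. Map1lc3b, the LC3 protein that is attached to the autophagosome membrane, was at 142, 156 and 122 CPM in CTR and 209.6, 211, 189 and 176 CPM in VPA, a log2 fold change of 0.49 ± 0.15. Wipi1, which binds the lipid made at the site where the autophagosome forms, was at 74.1, 74.9 and 80.0 CPM in CTR and 96.6, 81.8, 107 and 116 CPM in VPA, a log2 fold change of 0.39 ± 0.17. These 3 did not overlap between the groups and were higher with VPA at each shared culture number. Uvrag and Map1lc3b each share their positions with other genes, on both strands.

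The other LC3-family members had positive values with more spread. Gabarapl2 was at 37.4, 48.5 and 38.9 CPM in CTR and 92.1, 102, 65.0 and 40.8 CPM in VPA, a log2 fold change of 0.85 ± 0.33 in which VPA 4 lay among the CTR libraries. Map1lc3a had 0.49 ± 0.26 and Gabarapl1 0.21 ± 0.22. Their relative Gabarap, which is not a member, had -0.23 ± 0.19. Sqstm1, the cargo receptor p62 and the most abundant autophagy member, was at 1417, 1902 and 1027 CPM in CTR and 1489, 1076, 957 and 1336 CPM in VPA, a log2 fold change of -0.25 ± 0.25. Its groups overlapped almost fully.

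The kinase Ulk1, which starts autophagy, had a log2 fold change of -0.02 ± 0.48. Becn1, the core of the lipid kinase complex that Uvrag joins, was at 58.3, 72.9 and 58.1 CPM in CTR and 0, 54.1, 13.6 and 52.1 CPM in VPA. All 4 VPA values lay below the CTR values, but VPA 2 and VPA 4 by little, and its log2 fold change of -1.06 ± 1.01 rests on VPA 1 and VPA 3. It ranged from -1.53 to -0.64 over the fits that left out a library and from -2.41 to -0.84 over the other alternatives.

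**Figure D4:**
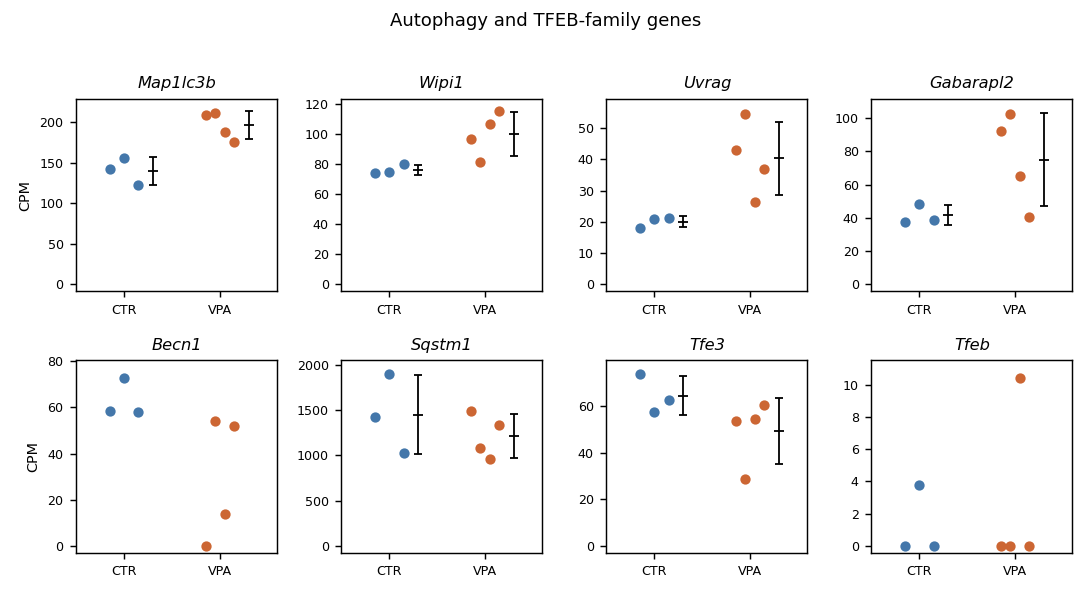
CPM of autophagy and TFEB-family genes in each library (blue, CTR; orange, VPA), with the mean and SD of each group as black bars, left out for Becn1 and Tfeb, which were at 0 in a library. Map1lc3b, Wipi1 and Uvrag are higher in all 4 VPA libraries, Sqstm1 and Tfe3 overlap, and Tfeb has reads in 1 CTR and 1 VPA library.

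At the 3 culture numbers present in both groups, 20 of the 53 tested members were higher with VPA in all 3, against 14.9% of all genes tested, and 8 were lower in all 3, against 20.4%. By role, 5 of 8 V1 subunits, 4 of 7 proteases, 5 of 11 glycan and lipid hydrolases, 4 of 9 autophagy genes, 1 of 8 membrane genes and 1 of 7 V0 genes were higher in all 3. Lower in all 3 were 2 of 7 V0 genes, 2 of 8 membrane genes, 2 of 9 autophagy genes, 1 of 11 hydrolases and Tfe3. The hydrolases counted here include Glb1, whose difference at number 71 is set by the 0 in CTR 3. The median difference of the members was 0.25 at number 71, 0.23 at number 72 and 0.05 at number 74.

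Genes of the same pathways that were not members were read from lists of further V-ATPase subunits, hydrolases, membrane proteins, sorting factors, autophagy genes and regulators of mTORC1 and TFEB. Of 179 such genes 152 were tested, 104 with positive and 48 with negative log2 fold changes and a median of 0.17. None passed an adjusted p of 0.05 in edgeR, limma-voom or DESeq2, and 9 (5.92%) had an unadjusted p under 0.05 in edgeR, all of them higher with VPA, beside 3.65% of all genes marked higher and 4.62% marked lower. In 13 (8.55%) every VPA library was above every CTR library, beside 4.44% of all genes, and in none was every VPA library below, beside 7.41%. The medians were 0.17 for 36 further hydrolases, 0.16 for 42 further autophagy genes, 0.23 for 25 regulators of mTORC1 and TFEB, 0.13 for 23 sorting genes and 0.06 for 23 membrane proteins, beside -0.06 for all genes tested.

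Nbr1, a cargo receptor that works beside p62, was at 39.0, 33.3 and 35.1 CPM in CTR and 90.8, 113, 46.6 and 53.6 CPM in VPA, a log2 fold change of 1.09 ± 0.34. Fyco1, an adaptor that links autophagosomes to kinesin, was at 26.8, 23.3 and 30.7 CPM in CTR and 50.9, 42.1, 52.2 and 37.8 CPM in VPA, a log2 fold change of 0.77 ± 0.24. Gm2a, the activator that lifts GM2 ganglioside out of the membrane for the hexosaminidase of which Hexa is a subunit, was at 30.3, 31.7 and 33.4 CPM in CTR and 41.1, 74.1, 74.7 and 45.3 CPM in VPA. Its log2 fold change of 0.89 ± 0.28 and that of Hexa, -0.70, thus had opposite signs in a single degradation step, each without overlap between the groups. Plbd2, a phospholipase-like lysosomal protein, had a log2 fold change of 0.66 ± 0.20, and Arl8b, a small GTPase that moves lysosomes along microtubules, 0.45 ± 0.18, both without overlap. The adjusted p of these 5 genes in edgeR lay between 0.447 and 0.571.

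Lysosomal genes differ in level between the cell types of a liver, so marker lists were read beside them. Of 16 Kupffer cell and macrophage markers 12 were tested, 7 with positive and 5 with negative log2 fold changes and a median of 0.11. The summed CPM of the 16 was 470.5 to 578 in CTR and 386 to 773 in VPA. The defining markers Adgre1 and Marco were at 0 in every library. Cd68, which is itself a lysosomal protein, was at 57.6 to 109 CPM in CTR and 81.9 to 178 CPM in VPA. Its log2 fold change was 0.65 ± 0.32, while that of Lyz2 was -0.48 ± 0.36, and both overlapped between the groups. The 13 hepatocyte markers, of which 11 were tested and Ass1 was at 0 throughout, had a median of 0.27 and summed to 7996 to 20683 CPM in CTR and 4773 to 17339 CPM in VPA. Of the 11 stellate cell and myofibroblast markers 9 had negative log2 fold changes, with a median of -1.04, and they summed to 3172 to 6098 CPM in CTR and 2163 to 3984 CPM in VPA. The 9 markers of sinusoidal endothelium, 8 of them tested, had a median of -0.35 and summed to 239 to 251 CPM in CTR and 114 to 379 CPM in VPA. The 7 of cholangiocytes, 4 of them tested, had a median of 0.11. Krt19 was at 0 in all CTR libraries and in VPA 1 and VPA 3. The part of these cell types in the values of the members was not tested.

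The libraries held 1743675 to 4773750 counts in CTR and 1400887 to 3102450 in VPA. The number of genes with a read was 17744 to 19756 in CTR and 14359 to 16761 in VPA, without overlap (p = 0.0286 in an exact permutation test, two-sided, a value that 3 against 4 libraries cannot go below). The mitochondrial share was 14.5% to 27.7% in CTR and 23.9% to 32.5% in VPA (p = 0.143 by the same exact test). Zeros in well expressed genes went with the VPA libraries. Among genes that averaged at least 20 CPM in the other 6 libraries, 0.503% to 1.49% were at 0 in a CTR library and 2.22% to 6.54% in a VPA library, the most in VPA 1. In all 773 tested genes had such a zero, and 4 members did: Atp6v0d1 in CTR 3 and VPA 1, Atp6ap1 and Becn1 in VPA 1, and Gusb in VPA 3. The part of these zeros in the negative values of Atp6ap1, Gusb and Becn1 was not tested.

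**Figure D5:**
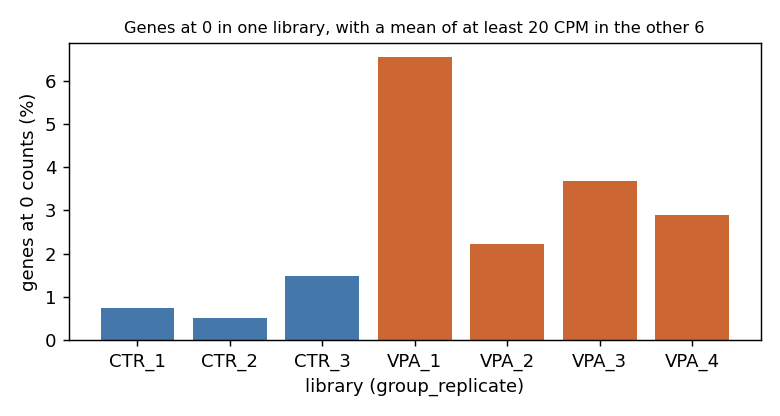
Share of genes, in percent, that were at 0 reads in a library while the other 6 averaged at least 20 CPM (blue, CTR; orange, VPA). The CTR libraries lie between 0.503% and 1.49% and the VPA libraries between 2.22% and 6.54%, with VPA 1 the highest.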

How the data were processed

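Mouse PCLS collected on day 3 of culture (3 CTR, 4 VPA) were profiled with a 3′ end library kit. The authors trimmed single-end reads, mapped them with STAR to GRCm38.p6 (mm10 in the submitters' processing notes), assembled genes with StringTie and deposited raw counts per gene. Strand use and the handling of reads with several matches are not given in the sources used here. Gene symbols were matched by Ensembl ID to GENCODE. The positions of 24 members overlap another annotated gene.

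The counts were tested with edgeR 4.0.16 (robust quasi-likelihood, TMM, filterByExpr, condition as the only term, Benjamini-Hochberg adjustment over 10876 genes) in R 4.3.3. The study used DESeq2. Here DESeq2 1.42.0 and limma 3.58.1 were alternatives, and the script was tested on simulated counts. CPM used TMM-scaled library sizes, and 260 rows had no symbol. Depth was 1400887 to 4773750 counts per library, and 3 reads were taken as the limit that a count of 0 allows, for counting error only. The members and all lists were chosen with earlier results of these data known. Given in full were Neu1 and Atp6v1a, members whose groups did not overlap at a mean of at least 5 CPM, a preset list of well-known members, and up to 2 genes per further list and direction with no overlap, an unadjusted p under 0.05 and the lowest p. Other genes were named by role. Libraries of a group differed by more than counting noise (chi-square per degree of freedom 12.97 to 24.25), so none was a copy.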

Additional observations from a re-analysis of the deposited data

Results flagged for a closer look

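Of 27 measures examined for a value far from the rest of the 4 VPA libraries, 2 stood out, where chance alone gives about 0.05 of those examined. VPA 2 held 3102450 counts, against 1400887 to 1515954 in the other 3 VPA libraries. Tfeb was at 10.4 CPM in VPA 3 and at 0 in the other 3 VPA libraries. With those 3 at 0, any read in VPA 3 would have stood out, so this outcome was fixed in advance. The chance share above does not apply to it, and the value rests on 13 reads.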

How the results depend on the processing

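The count of genes past an adjusted p of 0.05 was 1 and moved to 154 with DESeq2 (39 higher, 115 lower), 10 without a filter on low counts (2 higher, 8 lower) and 36 when at least 10 counts were asked of every library (17 higher, 19 lower). Members past that threshold numbered 0, but 5 with DESeq2 and 2, Neu1 (adjusted p = 0.00833) and Atp6v1a (0.0327), with the stricter filter, which tests fewer genes. The cause of the DESeq2 difference was not tested. Leaving out each library gave 0 to 2 genes over all, the most without VPA 2 or VPA 4, and 0 members. Members at an unadjusted p under 0.05 numbered 12, beside 900 of all genes tested. Over all alternatives there were 10 to 14 members, beside 539 (without CTR 1) to 1673 (without a filter on low counts) of all genes. With a replicate block by slice culture or by replicate number, 0 genes passed. The deviations of same-numbered libraries correlated by 0.0256, 0.0546 and 0.107 for culture numbers 72, 74 and 71 and by -0.0539 for replicate number 1, so a pairing of same-numbered libraries was not shown, and what the numbers mark is not stated. The members' median was 0.24 with the culture block and 0.12 with the number block, and over every alternative it stayed between 0.12 and 0.30, with 33 to 38 members higher and 13 to 22 lower. The median of all genes moved to -0.16 without a filter and -0.14 with limma-voom. In all 16 alternatives 38 of the 53 tested members kept their sign. No further pathway gene passed in any alternative. Low read numbers limit Tfeb (32 reads in all) and Sgsh (153).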
